A study of Mus musculus with 30 samples.

Results

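Spleens of Ctcf heterozygous mice were compared with wild-type (WT) spleens across all genes, with 3 libraries of each genotype. These 6 libraries, chosen by tissue from the sample titles, belong to a set of 30 that also covers brain, kidney, liver and muscle. All mice were adult and of the C57BL/6 strain. The heterozygous group (Ctcf+/-) has 1 functional copy of Ctcf, and the WT group carries neither this nor any other stated allele. The labels give no construction of the allele, no sex and no link between a library and a mouse, so p-values measure the spread between these libraries. RNA came from pieces of whole spleen under 30 mg, so fewer cells of a type and less RNA per cell cannot be told apart. The purpose stated in the series title is to examine intron retention in different tissues. Only counts per gene are used here.

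The product of Ctcf is a DNA-binding protein with many zinc fingers that, with cohesin, sets the ends of chromatin loops. The spleen joins 2 compartments. Its white pulp holds follicles of B cells and zones of T cells. Its red pulp filters blood, and there macrophages take up old red cells and return their iron. In mice the red pulp also makes red cells and granulocytes, so a spleen library mixes lymphocytes with dividing erythroid and myeloid precursors.

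The spleen libraries held 77.9 M to 91.4 M counts. Of 48709 genes, 18615 passed the filter on low counts. Another 1104 of these, whose mean in another tissue was over 100 times that in spleen, were set aside and are described apart from the spleen programs, which leaves 17511. The rule is a threshold: Htr1b and Auts2 lay just inside, at 100.003 and 100.024 times the spleen mean, and Gm2788 and Pianp just outside, at 99.7 and 99.7 times. Levels below are counts scaled to library size (CPM) with TMM factors, a method that corrects for library composition. A log2 fold change sets heterozygous spleen over WT and has a standard error (SE); both come from edgeR's quasi-likelihood test with Benjamini-Hochberg adjustment over the 18615 genes. A gene is called at an adjusted p under 0.05.

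The spleen libraries varied widely within each genotype, and 2 of them stood apart from the rest. The common biological coefficient of variation, a measure of how far replicate levels spread beyond counting error, was 0.332 in spleen. It was 0.121 in brain, 0.185 in kidney, 0.201 in muscle and 0.228 in liver. Among the 500 most variable genes that were not set aside, the first principal component held 81.6% of the variance, of which genotype accounted for 0.0347%. On it WT replicate 1 stood at -36.0 and heterozygous replicate 2 at -49.5, and the other 4 libraries stood between 9.8 and 30.0. Without both of these libraries the coefficient was 0.25. The medians of the main gene lists are given with and without them.

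**Figure D1:**
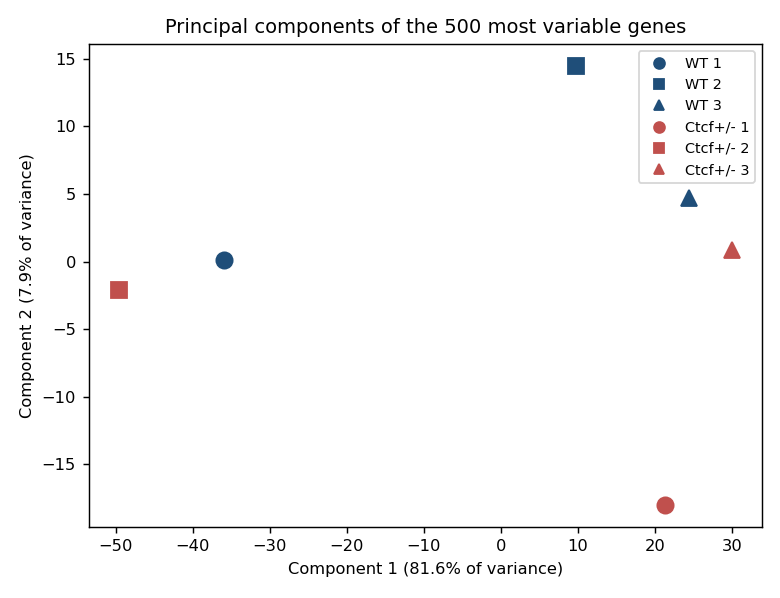
Each point is 1 spleen library, placed by the first (x axis) and second (y axis) principal component of the 500 most variable genes that were not set aside, in units of log2 CPM. WT replicate 1 (-36.0) and heterozygous replicate 2 (-49.5) lie on the left of the first component, and 2 libraries of each genotype lie on the right.

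Genes of the pancreas, which lies against the spleen, varied most. All 17 tested genes of an 18-gene list of pancreatic acinar enzymes were among those 500 genes. Their summed level was 388 CPM in WT replicate 1, 233 in WT replicate 2 and 31.6 in WT replicate 3. In the heterozygous libraries it was 40.5, 3118 and 42.7 CPM in replicates 1, 2 and 3. The level was highest in heterozygous replicate 2, it was also high in WT replicates 1 and 2, and the groups overlapped. The median log2 fold change of the 17 genes was 2.28, and it was -2.76 without heterozygous replicate 2. Of the 15 genes with the largest spread within groups, among those with a mean of at least 10 CPM, nearly all encode pancreatic enzymes. Ctrb1, which encodes a chymotrypsinogen, had the largest: its level was 65.9, 36.6 and 2.59 CPM in WT replicates 1 to 3 and 4.85, 604.5 and 5.84 CPM in heterozygous replicates 1 to 3. Pnlip, the pancreatic lipase, followed the same pattern, at 50.6, 26.2 and 2.27 CPM against 2.91, 389 and 4.12 CPM. Neither gene was called (adjusted p 1 each).

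The same 2 libraries also differed by transcript length and base composition. Genes whose summed exons were 5355 bases or longer (4378 of 17511) had a median deviation from their own 6-library mean of -0.142 (log2) in WT replicate 1 and -0.186 in heterozygous replicate 2. In the other 4 libraries it was 0.0508 to 0.152. In the 4364 genes with the lowest GC content (up to 44.6%) the medians were -0.111 and -0.167 in those 2 libraries and 0.0409 to 0.109 in the others. The labels state an RNA integrity number over 7 for the samples but no value for a library, and the part of these differences in any result was not tested.

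The level of Ctcf checks the genotype labels. It was 176, 229 and 195 CPM in WT replicates 1 to 3. It was 134, 105 and 154 CPM in heterozygous replicates 1 to 3. Every heterozygous library lay below every WT library, and the heterozygous mean was 65.3% of the WT mean (200 ± 26.6 against 131 ± 24.4 CPM, SD, n = 3). The exact 2-sided permutation test gave p = 0.1, the smallest that 3 against 3 libraries allow. Scaled by total counts alone the groups overlapped (exact permutation p = 0.2). The fit over all genes did not call Ctcf (log2 fold change -0.62, SE 0.19, adjusted p 0.914). The gene lies on GRCm38 at chr8:105636568-105682922 on the plus strand, and its exons overlap Agrp and Gm5914.

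Carmil2, which starts just beyond the end of Ctcf (chr8:105686274-105698187, plus strand), encodes a regulator of actin capping that T cells use in co-stimulation through CD28. Its level was 121, 160 and 158 CPM in WT replicates 1 to 3 and 240, 253 and 285 CPM in heterozygous replicates 1 to 3. The groups did not overlap, and the heterozygous mean was 177% of WT. The log2 fold change was 0.82 (SE 0.17) and missed the call (adjusted p 0.248). Its exons overlap Acd, a gene on the other strand, and fragments were counted without regard to strand. Zdhhc1, a palmitoyltransferase gene upstream of Ctcf (chr8:105472423-105496902, minus strand), stood at 4.29, 4.27 and 5.04 CPM in WT and at 10.3, 9.85 and 9.62 CPM in heterozygous libraries. Its log2 fold change of 1.13 (SE 0.17) also missed the call (adjusted p 0.0757).

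Across all genes 45 of 18615 were called (0.242%), 11 higher (0.0591%) and 34 lower (0.183%) in heterozygous spleen. An unadjusted p under 0.05 was reached by 656 genes (3.52%), of which 475 were higher (2.55%) and 181 lower (0.972%). The groups did not overlap in 1236 genes (6.64%), of which 810 were higher (4.35%) and 426 lower (2.29%). Of the 45 called genes, 43 belonged to the set-aside transcripts: 33 that are highest in liver were lower and 10 that are highest in kidney were higher. Of the 17511 genes not set aside, 2 were called (0.0114%), Exd1 higher and Mup20 lower (0.00571% each). The count of 45 fell when any single library was left out, which also leaves fewer libraries in a group. In edgeR, leaving out WT replicate 1 gave 0 calls, as did leaving out WT replicate 2 or WT replicate 3. The genes with an unadjusted p under 0.05 then numbered 678, 515 and 593. Leaving out heterozygous replicate 1 or 3 gave 1 call, and leaving out heterozygous replicate 2 gave 29. With WT replicate 1 and heterozygous replicate 2 both left out, edgeR made 0 calls and 1042 genes had an unadjusted p under 0.05. DESeq2 called 192 of the genes, of which 40 were not set aside, and limma-voom called 97, of which 4 were not set aside.

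Exd1 is a partner of the piRNA pathway known from the germ line, and it is the call among genes not set aside that does not belong to a multi-copy family. It lies at chr2:119516505-119547627 on the minus strand. Its level was 0.146, 0.132 and 0.171 CPM in WT replicates 1 to 3 and 1.69, 0.992 and 1.16 CPM in heterozygous replicates 1 to 3. The heterozygous libraries were all above WT, though low in absolute level. The log2 fold change was 3.08 (SE 0.35, adjusted p 0.0340). Leaving out single libraries gave adjusted p between 0.0495 and 0.294, so that the call held in 1 of 6 such fits. Mup20, a liver-made urinary protein gene, stood at 1.04, 0.757 and 0.845 CPM in WT and at 0 counts in the 3 heterozygous libraries, at least 25.7-fold lower against a floor of 3 counts in each library (adjusted p 0.0317). The Mup genes are near-identical copies, which leaves its level uncertain, and its mean in liver was 34.6 CPM. With a set-aside limit of 30 times, 1 call remained among the genes not set aside.

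The 250 bases before the start of Exd1 (chr2:119547628-119547877, minus strand, GRCm38.p6, from RefSeq) are shown because it is that single call. They were searched on both strands for AGGNGGC, letters from the core of the sequence that Ctcf protein is known to bind.
Exd1: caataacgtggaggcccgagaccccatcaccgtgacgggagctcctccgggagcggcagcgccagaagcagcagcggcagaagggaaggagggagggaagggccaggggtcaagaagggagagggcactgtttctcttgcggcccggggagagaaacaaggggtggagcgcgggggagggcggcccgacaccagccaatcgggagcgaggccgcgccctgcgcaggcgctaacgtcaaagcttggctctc
These letters are not in this window. The same search before Zdhhc1 gave 1 match, AGGGGGC, which starts at -123 from the start site. The letters are in 25% of the 32851 windows of the same length before RefSeq start sites, so a match or its absence is common.

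Of the genes not set aside, 893 of 17511 (5.1%) had groups that did not overlap, 591 higher (3.38%) and 302 lower (1.72%), and 380 (2.17%) had an unadjusted p under 0.05, 302 higher (1.72%) and 78 lower (0.445%). The genes with the smallest p in each direction, with a mean of at least 1 CPM and groups apart, are given below. Only some of them are shown in the plot of named genes. None of the following genes was called. Adamtsl4, a matrix protein gene of the ADAMTS-like family, stood at 2.97, 3.35 and 2.86 CPM in WT and at 8.40, 7.60 and 6.96 CPM in heterozygous spleen (log2 fold change 1.32, SE 0.18, adjusted p 0.0599). Scel, which encodes sciellin of cornified epithelia, stood at 0.481, 0.673 and 0.584 CPM against 2.73, 1.63 and 2.42 CPM (adjusted p 0.0874). Klra6, a receptor gene of the Ly49 family of natural killer (NK) cells, stood at 2.06, 2.23 and 2.66 CPM against 6.16, 5.43 and 5.18 CPM (adjusted p 0.0963). These 3 genes were higher in each heterozygous library than in any WT library. The family of Klra6 is of near-identical genes, so its counts are uncertain. Ppic, a cyclophilin, Gpr27, an orphan receptor, Rgs11, a regulator of G-protein signalling, B4galnt4, a glycosyltransferase, and the heavy chain segment Ighv5-9-1 had adjusted p of 0.127 to 0.273, and Zdhhc1 and Carmil2 completed the higher side.

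On the lower side Nefh, the heavy neurofilament gene, stood at 5.80, 6.21 and 5.99 CPM in WT and at 2.84, 3.04 and 2.50 CPM in heterozygous spleen (log2 fold change -1.10, SE 0.18, adjusted p 0.111). Zfp61, a zinc-finger gene, stood at 10.4, 8.34 and 9.38 CPM against 4.26, 5.03 and 4.68 CPM (adjusted p 0.136). Tlr6, a receptor for bacterial lipopeptides, stood at 13.2, 9.80 and 13.7 CPM against 8.37, 6.70 and 6.54 CPM (adjusted p 0.656). Groups that did not overlap were part of how these genes were picked. The fitted differences of Nefh, Zfp61 and Tlr6 were modest in size. Esr1, the oestrogen receptor, Cyp39a1, an oxysterol hydroxylase, Capn2, a calpain, Mansc1, Cfap74 and the segments Ighv10-3 and Ighv1-66 made up the rest, with adjusted p of 0.139 to 0.754. Of these genes on the lower side Cfap74 had the largest fitted difference (log2 fold change -2.99, SE 0.54, adjusted p 0.139). It was at 2.25, 7.93 and 4.22 CPM in WT and at 0.570, 0.400 and 0.836 CPM in heterozygous libraries. Its exons overlap another gene.

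**Figure D2:**
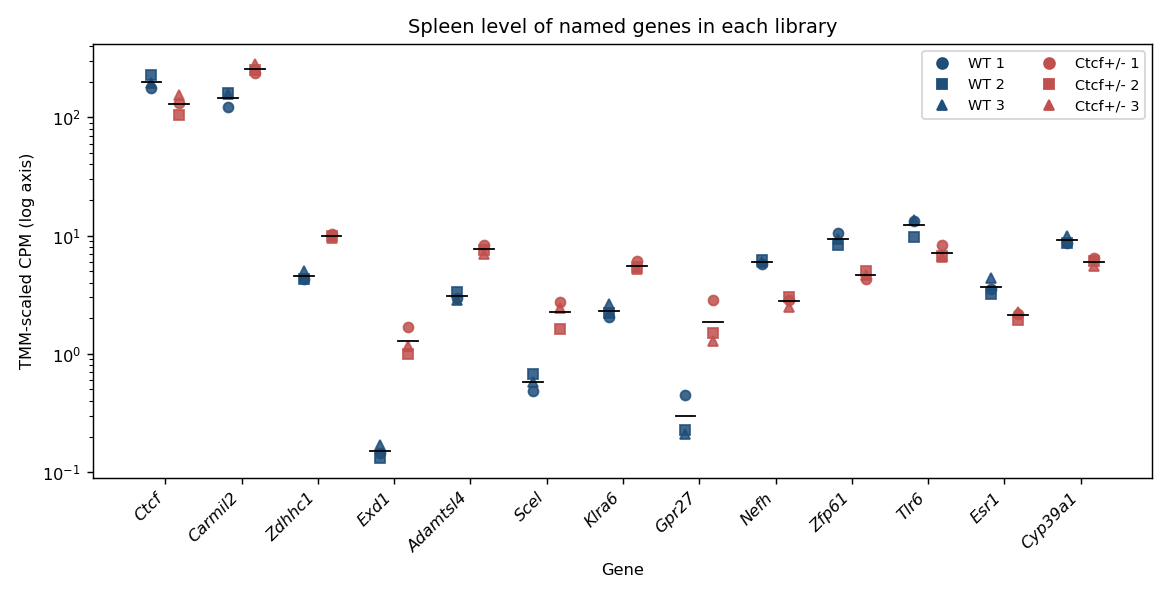
Each point is the TMM-scaled CPM (y axis, log scale) of a gene in 1 library, WT in blue and heterozygous in red, and each black line is the mean of 3 libraries. Exd1 lies at 0.132 to 0.171 CPM in WT and 0.992 to 1.69 CPM in heterozygous libraries; Ctcf, Nefh, Zfp61, Tlr6, Esr1 and Cyp39a1 are lower and the other genes higher in the heterozygous group.

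The erythroid genes had the highest mean summed level of the lists and varied several-fold between libraries of one genotype. The list held 44 genes, of which 43 were tested and Ahsp had no match. Their summed level was 109247, 77779 and 18795 CPM in WT replicates 1 to 3. It was 26382, 92612 and 46573 CPM in heterozygous replicates 1 to 3. WT replicate 3 and heterozygous replicate 1 were low and the others higher, so that both genotypes spanned most of the range. All 43 fitted log2 fold changes were negative, with a median of -0.41 (-0.00895 over all genes not set aside), but none of the genes was called, none had an unadjusted p under 0.05, and none had groups that did not overlap. The median was -0.0625 without heterozygous replicate 1 and -0.826 without WT replicate 3. Without WT replicate 1, WT replicate 2 or heterozygous replicate 1, 31, 32 and 31 of the 43 were negative. Without both libraries that stood apart, all 43 were negative, with a median of -0.55.

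The globin genes dominated that sum. Hbb-bs, an adult beta globin and the highest of the erythroid genes per exon length, was at 41313, 26979 and 6782 CPM in WT and at 10331, 35543 and 15797 CPM in heterozygous libraries. Hba-a1, an adult alpha globin, was at 34219, 19442 and 5097 CPM against 6597, 29206 and 12179 CPM. The libraries kept one order for both: WT replicate 1 highest, then heterozygous replicate 2, and WT replicate 3 lowest. Hba-a1 and Hba-a2 are near-identical copies, so the division of fragments between them is uncertain. The 11 genes of haem synthesis and iron uptake summed to 7358, 7418 and 1835 CPM in WT and to 2150, 5829 and 4429 CPM in heterozygous libraries. Among them Alas2, the first enzyme of erythroid haem synthesis, was at 2424, 2320 and 451 CPM against 644, 1899 and 1197 CPM (log2 fold change -0.47, SE 0.66, adjusted p 1).

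The other erythroid roles kept WT replicate 3 and heterozygous replicate 1 lowest. The 5 transcription factor genes, Klf1, Gata1, Nfe2, Tal1 and Zfpm1, which drive the red cell program, summed to 941, 947 and 214 CPM in WT and to 216, 846 and 514 CPM in heterozygous libraries. Klf1, the activator of adult beta globin, was at 200.2, 184 and 36.0 CPM against 30.6, 177 and 95.5 CPM. The 13 membrane and skeleton genes, such as the anion exchanger Slc4a1, summed to 6632, 8070 and 1510 CPM against 1923, 5406 and 4961 CPM. The smallest p of the list belonged to Car1, a carbonic anhydrase, at 129, 145 and 94.1 CPM against 23.5, 140.2 and 77.4 CPM (log2 fold change -0.61, SE 0.57, adjusted p 1). There heterozygous replicates 1 and 3 were lowest, and the groups overlapped.

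The windows before 2 of these genes are shown because WT replicate 3 and heterozygous replicate 1 were lowest in the summed level of each erythroid role. In capitals are AGATAA, a form of the sequence that Gata1 protein binds, and CCNCNCCC, that of Klf1 protein, found on either strand in the 250 bases before the RefSeq start (GRCm38.p6).
Hbb-bs: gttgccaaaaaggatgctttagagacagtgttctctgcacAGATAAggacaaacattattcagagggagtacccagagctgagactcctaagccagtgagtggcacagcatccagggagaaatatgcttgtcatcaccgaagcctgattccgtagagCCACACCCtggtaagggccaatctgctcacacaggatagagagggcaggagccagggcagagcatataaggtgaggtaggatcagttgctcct
Alas2: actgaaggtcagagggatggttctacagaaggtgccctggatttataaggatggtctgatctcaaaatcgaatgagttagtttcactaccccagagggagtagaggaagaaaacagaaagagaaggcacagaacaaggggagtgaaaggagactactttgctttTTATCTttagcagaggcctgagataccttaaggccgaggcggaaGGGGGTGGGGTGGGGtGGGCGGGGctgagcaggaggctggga
The first window is chr7:103827929-103828178 on the minus strand and the second chrX:150547167-150547416 on the plus strand. The 2 matches in the window of Hbb-bs start 210 and 93 bases before the start site. In the window of Alas2 the GATA letters are on the minus strand, and the Klf1 letters match there in several overlapping or adjacent places. Of the 32851 windows, 9.99% hold AGATAA and 45.9% hold CCNCNCCC, so a match to CCNCNCCC is common and one to AGATAA is less so. No binding was measured here.

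Genes of cell division followed the erythroid libraries. The 32 genes summed to 4829, 5545 and 1932 CPM in WT and to 2005, 4477 and 3692 CPM in heterozygous libraries, with WT replicate 3 and heterozygous replicate 1 again low. Every fitted log2 fold change was negative (median -0.27), none was called, and no groups were apart. The median was -0.614 without WT replicate 3 and -0.0156 without WT replicate 2, and it was -0.438 without both libraries that stood apart.

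**Figure D3:**
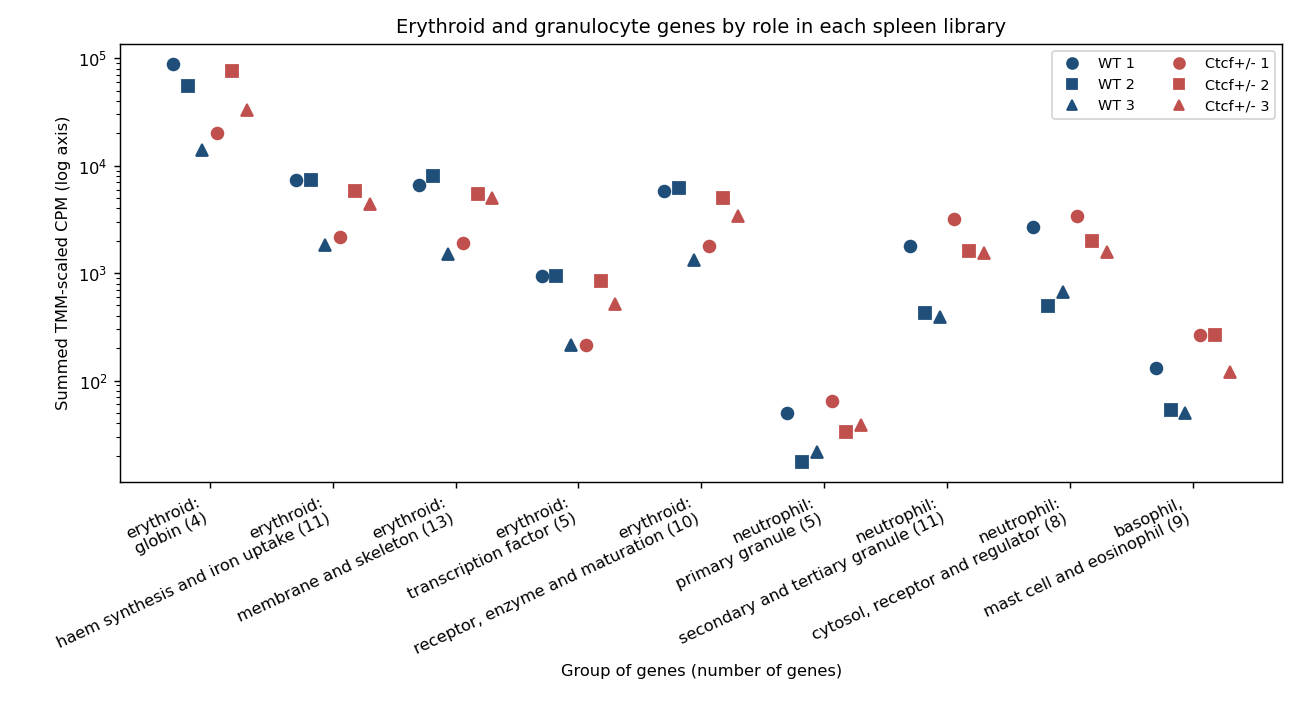
Each point is the summed TMM-scaled CPM (y axis, log scale) of a group of genes (x axis) in 1 spleen library. The erythroid groups are lowest in WT replicate 3 and heterozygous replicate 1, while the neutrophil groups are highest in heterozygous replicate 1 and WT replicate 1.

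Neutrophil genes were at higher levels in heterozygous spleen on average, and WT replicate 1 crossed into the heterozygous range. The 24 genes summed to 4523, 936 and 1079 CPM in WT replicates 1 to 3 and to 6648, 3635 and 3136 CPM in heterozygous replicates 1 to 3. Of the 24, 23 had a positive log2 fold change (median 0.97), 2 had groups apart (8.33%, against 5.1% of all genes not set aside) and 4 had an unadjusted p under 0.05 (16.7% against 2.17%). None was called. Without WT replicate 1, one of the libraries that stood apart, all 24 were positive with a median of 1.97, and without both such libraries the median was 2. Without heterozygous replicate 1 the median was 0.601 and 22 were positive.

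By role, the 11 genes of the secondary and tertiary granules, which precursors fill at a late stage, had the highest median, 1.18. They summed to 1792, 429 and 391 CPM in WT and to 3174, 1602 and 1541 CPM in heterozygous libraries. Ngp, a granule protein of the cathelicidin type, was at 502, 122.9 and 87.5 CPM against 1073, 484 and 494 CPM (log2 fold change 1.53, SE 0.71, adjusted p 1). Mmp8, the neutrophil collagenase, had groups apart, at 26.7, 10.4 and 9.76 CPM against 74.9, 28.4 and 34.5 CPM. Its log2 fold change was 1.56 (SE 0.53, adjusted p 1). Ly6g, the surface marker of mouse neutrophils, was the other gene with groups apart, at 10.7, 2.16 and 2.28 CPM against 24.8, 11.6 and 11.8 CPM; it was picked with its values in view, outside the rule for named genes. The 5 genes of the primary granules, such as the elastase Elane and the peroxidase Mpo, summed to 49.4, 17.3 and 21.7 CPM against 64.5, 33.1 and 38.6 CPM. The 8 genes of the cytosol, receptors and regulators included S100a9, a subunit of calprotectin, at 1243, 199 and 263 CPM against 1667, 932 and 701 CPM. S100a8, its partner, was at 940.3, 152 and 218 CPM against 1359, 686 and 559.6 CPM. In both genes WT replicate 1 lay above heterozygous replicates 2 and 3.

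Genes of basophils, mast cells and eosinophils stood highest in heterozygous replicates 1 and 2. The 9 genes summed to 131, 52.8 and 50.1 CPM in WT and to 266, 267 and 121 CPM in heterozygous libraries. All 9 log2 fold changes were positive (median 1.06), 3 had groups apart (33.3%, against 5.1% of all genes not set aside) and none was called. Epx, the eosinophil peroxidase, was at 8.72, 3.97 and 3.42 CPM against 22.8, 20.2 and 10.01 CPM (log2 fold change 1.72, SE 0.46, adjusted p 0.656). Prg2, the eosinophil major basic protein, was at 83.2, 29.2 and 29.1 CPM against 181, 199 and 79.3 CPM, with groups that overlapped through WT replicate 1. Cpa3, the mast cell carboxypeptidase, was at 3.22, 2.44 and 2.02 CPM against 4.74, 3.93 and 3.60 CPM. All 9 stayed positive when any single library was left out, with medians of 0.62 to 1.88, and without both libraries that stood apart, with a median of 1.55.

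Monocyte and dendritic cell genes had no common direction. Of 19 genes, 10 were positive and 9 negative (median 0.00206). Ly6c2, the antigen of inflammatory monocytes, was at 98.6, 67.3 and 84.0 CPM in WT and at 154, 143 and 121 CPM in heterozygous libraries, with groups apart (log2 fold change 0.74, SE 0.19, adjusted p 0.562). Lyz2, the lysozyme of myeloid cells, was at 1433, 608 and 573 CPM against 1266, 1179 and 747 CPM, high in WT replicate 1. Cd209a, a lectin of dendritic cells, had groups apart on the lower side, at 7.79, 8.12 and 10.6 CPM against 5.52, 7.74 and 6.35 CPM (adjusted p 1), and overlapped when scaled by total counts alone.

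Splenic macrophage genes were set by single libraries. The 24 genes, of which 1 (Trf, transferrin) was set aside, summed to 6087, 5075 and 3521 CPM in WT and to 4347, 7308 and 2567 CPM in heterozygous libraries. Of the 24, 12 were positive and 12 negative, with a median of 0.00205. Without heterozygous replicate 2 the median was -0.369 and 22 were negative, and without heterozygous replicate 3 it was 0.235 and 20 were positive. Without both libraries that stood apart it was -0.296 and 23 were negative. Hmox1, haem oxygenase, which breaks down haem from old red cells, was at 454, 458 and 343 CPM against 515, 562 and 165 CPM. C1qa, a chain of complement C1q, was at 214, 149 and 125 CPM against 160.4, 283 and 62.0 CPM. Marco, a scavenger receptor of the marginal zone, was at 47.1, 44.9 and 18.5 CPM against 84.7, 115 and 24.4 CPM. Heterozygous replicate 3 was lowest for Hmox1 and C1qa, and no gene of the list was called or had groups apart.

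**Figure D4:**
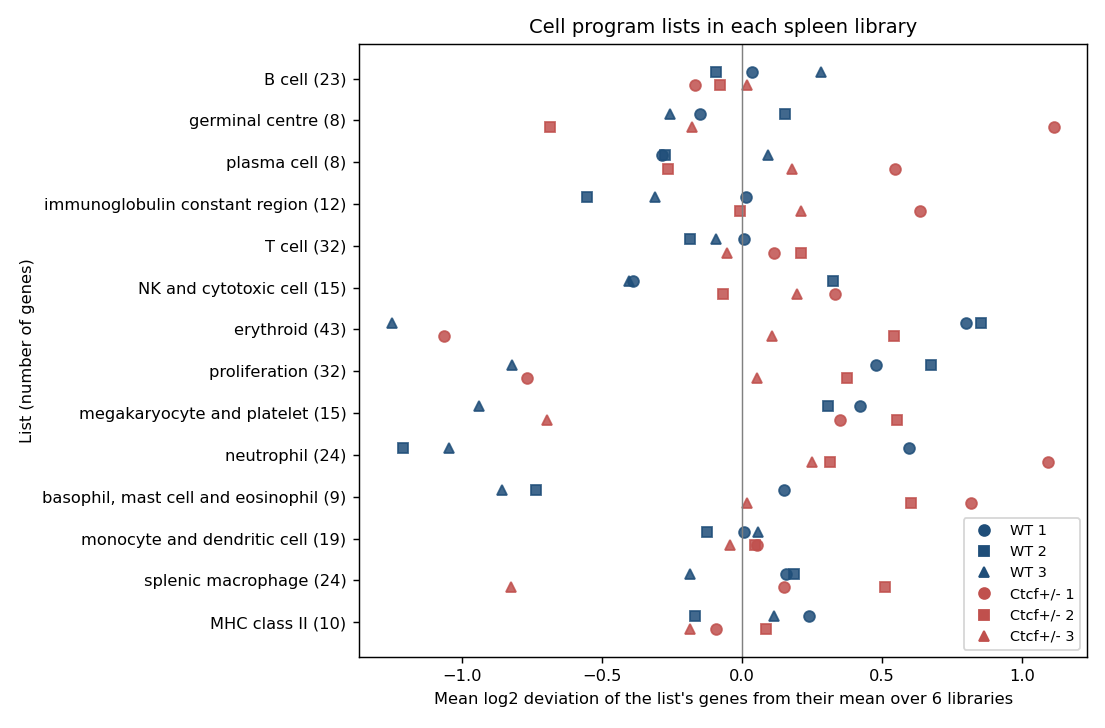
Each point is 1 spleen library, placed on the x axis by the mean log2 deviation of a list's genes from their own mean over the 6 libraries, and each row is a list with its number of genes. The erythroid and neutrophil rows span 2.10 and 2.30 over the 6 libraries, and the B cell, T cell and MHC class II rows span 0.453, 0.397 and 0.427.

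Summed B and T cell genes varied less between libraries than erythroid or neutrophil genes: the highest library was 1.38 and 1.48 times the lowest, against 5.81 and 7.11 times. The 23 B cell genes summed to 9414, 8202 and 10482 CPM in WT and to 7598, 8858 and 8687 CPM in heterozygous libraries. Of these, 22 had a negative log2 fold change (median -0.16), none was called and none had groups apart. Cd79a, a signalling chain of the B cell receptor, was at 1460 CPM in WT replicate 1, 1041 in replicate 2 and 1172 in replicate 3, and at 832, 1383 and 937 CPM in heterozygous libraries (log2 fold change -0.22, SE 0.26, adjusted p 1). Without WT replicate 3 the median was -0.044 and 17 were negative, and without both libraries that stood apart it was -0.184 and 21 were negative. The 10 genes of MHC class II, which present peptide on B cells and other presenting cells, had a median of -0.15 and no groups apart. Their median was -0.00419, with 5 positive, without WT replicate 1, and -0.34 without heterozygous replicate 2.

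Genes of the germinal centre, where activated B cells divide and mutate their antibody genes, stood high in heterozygous replicate 1. Gcsam, a signalling protein of these cells, was at 5.21, 6.30 and 4.78 CPM in WT and at 22.5, 4.33 and 5.16 CPM in heterozygous libraries. Mybl1, a transcription factor of dividing germinal centre cells, was at 4.40, 8.53 and 5.93 CPM against 21.9, 2.27 and 8.07 CPM. Of the 8 genes, 6 were positive (median 0.46), and without heterozygous replicate 1 the median was -0.308 and 7 were negative. Their groups overlapped.

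Antibody genes of the constant region had TMM-scaled summed levels apart between the groups. The 12 genes summed to 9789, 7081 and 9143 CPM in WT and to 12454, 10614 and 11123 CPM in heterozygous libraries. The TMM factor was 1.12 in WT replicate 3 and 0.891 in heterozygous replicate 2. Scaled by total counts alone these libraries change order, and the groups overlap. Of the 12, 9 had a positive log2 fold change (median 0.53), 3 had groups apart (25%, against 5.1% of all genes not set aside) and none was called. Without both libraries that stood apart the median was 0.662, with 8 positive. The 3 with groups apart encode class-switched heavy chains. The median of the 8 heavy chain genes was 1.42 against 0.00164 for the 4 light chain genes, with each gene weighing alike. By mean summed level both were higher in heterozygous libraries: 7481 against 5651 CPM for heavy chains and 3916 against 3019.5 CPM for light chains. The light chain sums overlapped. The log2 fold change was 0.18 (SE 0.30) for Ighm and 0.47 (SE 0.26) for Igkc. Ighg2c, of IgG2c, was at 110, 68.9 and 67.6 CPM against 297, 128 and 296 CPM (log2 fold change 1.55, SE 0.37, adjusted p 0.478). Ighg2b, of IgG2b, was at 121, 119 and 125 CPM against 301, 153 and 505 CPM (log2 fold change 1.40, SE 0.40, adjusted p 0.779), and its groups overlapped when scaled by total counts alone. Ighe, of IgE, was at 0.292, 0.108 and 0.121 CPM against 3.06, 0.344 and 0.386 CPM, high in heterozygous replicate 1. The unswitched Ighm was at 3745, 3543 and 4488 CPM against 2983, 4738 and 5595 CPM, and Ighd was at 906, 680 and 920 CPM against 683, 705 and 755 CPM, with overlap in both. Igkc, the kappa light chain, was at 2925, 1694 and 2474 CPM against 3622, 3275 and 2925 CPM. Of the 8 plasma cell genes 6 were positive (median 0.22), 1 had groups apart (12.5%, against 5.1%) and none was called. Without heterozygous replicate 1 the median was 8.19e-05, with 4 positive. Jchain, which joins secreted IgM and IgA, was at 365, 342 and 476 CPM against 1126, 455 and 663 CPM (log2 fold change 0.92, SE 0.35, adjusted p 1). Derl3 of the secretory pathway was at 6.27, 7.33 and 9.30 CPM against 16.5, 8.80 and 13.3 CPM. Among 226 tested V segments, 23 had groups apart on the higher and 10 on the lower side (14.6% in all, against 5.1% of all genes not set aside), and none was called. Each V segment is expressed in few clones, and near-identical segments share fragments.

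T cell genes were slightly higher on average in heterozygous spleen. The 32 genes summed to 4303, 3417 and 3583 CPM in WT and to 4017, 5052 and 3631 CPM in heterozygous libraries. Of these, 30 had a positive log2 fold change (median 0.18), 4 had groups apart (12.5%, against 5.1% of all genes not set aside) and none was called. The median was 0.306 without WT replicate 1, and 0.0605, with 20 positive, without heterozygous replicate 2. Without both it was 0.117, with 29 positive. Il7r, the receptor for the survival cytokine interleukin-7, was at 84.5, 118 and 119.9 CPM against 154, 133 and 153 CPM (log2 fold change 0.45, SE 0.18, adjusted p 1). Cd8a, the co-receptor of cytotoxic T cells, was at 145, 145 and 154 CPM against 185, 193 and 166 CPM (log2 fold change 0.29, SE 0.13, adjusted p 1). Cd27, a co-stimulatory receptor, and Tcf7, a transcription factor of naive T cells, were the other 2 with groups apart. Scaled by total counts alone, Cd27 kept groups apart and Il7r, Cd8a and Tcf7 overlapped. The receptor chains did not separate: Trbc2 was at 332, 208 and 227 CPM against 248, 388 and 217 CPM.

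Genes of NK and cytotoxic cells gave a like picture. Of 15 genes, 14 were positive (median 0.28), and 1 had groups apart (6.67%, near the 5.1% of all genes not set aside). This was Klrd1, the CD94 chain of NK receptors, at 45.9, 55.0 and 51.1 CPM in WT and at 70.6, 56.9 and 63.4 CPM in heterozygous libraries (log2 fold change 0.33, SE 0.15, adjusted p 1), and its groups overlapped when scaled by total counts alone. Gzma, granzyme A, was at 72.7, 126 and 50.02 CPM against 95.9, 90.0 and 90.3 CPM, within the WT range. The medians ran from 0.143, without WT replicate 3, to 0.527, without WT replicate 2.

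Among the remaining lists the medians were 0.12 for 15 megakaryocyte and platelet genes, 0.22 for 16 interferon response genes, -0.03 for 16 immediate early and heat shock genes and 0.08 for 13 genes of the mitochondrial genome. None of their genes was called. Without WT replicate 3 the megakaryocyte, interferon and mitochondrial medians were -0.283, 0.0633 and -0.0709. Without heterozygous replicate 2 they were -0.192, 0.0996 and -0.205, and without heterozygous replicate 3 they were 0.413, 0.348 and 0.261. Of 21 tested stroma and endothelium genes 17 were positive (median 0.72), none had groups apart, and the median was 0.15 without heterozygous replicate 1. The neuron, muscle and adipocyte lists had 5, 5 and 4 tested genes and no call.

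The transcripts set aside carried nearly all calls. The 33 called transcripts that are highest in liver summed to 79.2, 62.3 and 63.1 CPM in WT replicates 1 to 3 and to 0.85, 1.47 and 1.01 CPM in heterozygous replicates 1 to 3. Alb, serum albumin, was at 30.5, 23.9 and 24.0 CPM against 0.0200, 0.0689 and 0.104 CPM (log2 fold change -8.65, SE 0.49, adjusted p 0.0111), and its mean in liver was 128529 CPM. Ttr, transthyretin, was at 2.03, 1.60 and 1.60 CPM against 0.0200, 0.0551 and 0.0209 CPM (adjusted p 0.0174). All 15 hepatocyte genes of the list, 14 of them set aside, were lower with groups apart (100%, against 2.29% of all genes tested). Of these, 13 were called (0.183% of all genes tested were called lower). The 10 called transcripts that are highest in kidney summed to 4.96, 2.85 and 3.14 CPM in WT and to 26.0, 43.2 and 43.4 CPM in heterozygous libraries. Kap, an androgen-regulated kidney protein, was at 0 counts in WT and at 6.89, 14.6 and 14.0 CPM in heterozygous libraries, at least 323-fold higher (adjusted p 0.0237). Its mean in kidney was 14384 CPM. Of 11 kidney tubule genes 10 were positive; the exception was Aqp1, a water channel also known from red cells, at 635, 630.5 and 144 CPM against 119, 539 and 359 CPM. These sums are of transcripts picked because they were called. All 259 set-aside transcripts that are highest in liver summed to 440, 313.8 and 288.7 CPM in WT. They summed to 359.5, 345.1 and 243.3 CPM in heterozygous libraries, so the groups overlapped. Of the 259, 100 were apart on the lower and 20 on the higher side. All 285 set-aside transcripts that are highest in kidney summed to 170, 143.2 and 138.5 CPM in WT. They summed to 256, 327.5 and 256 CPM in heterozygous libraries, so these groups did not overlap. Of the 285, 131 were apart on the higher and 2 on the lower side. Over all genes tested, 4.35% were apart on the higher and 2.29% on the lower side. Whether they come from spleen cells or from other tissue was not tested.

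**Figure D5:**
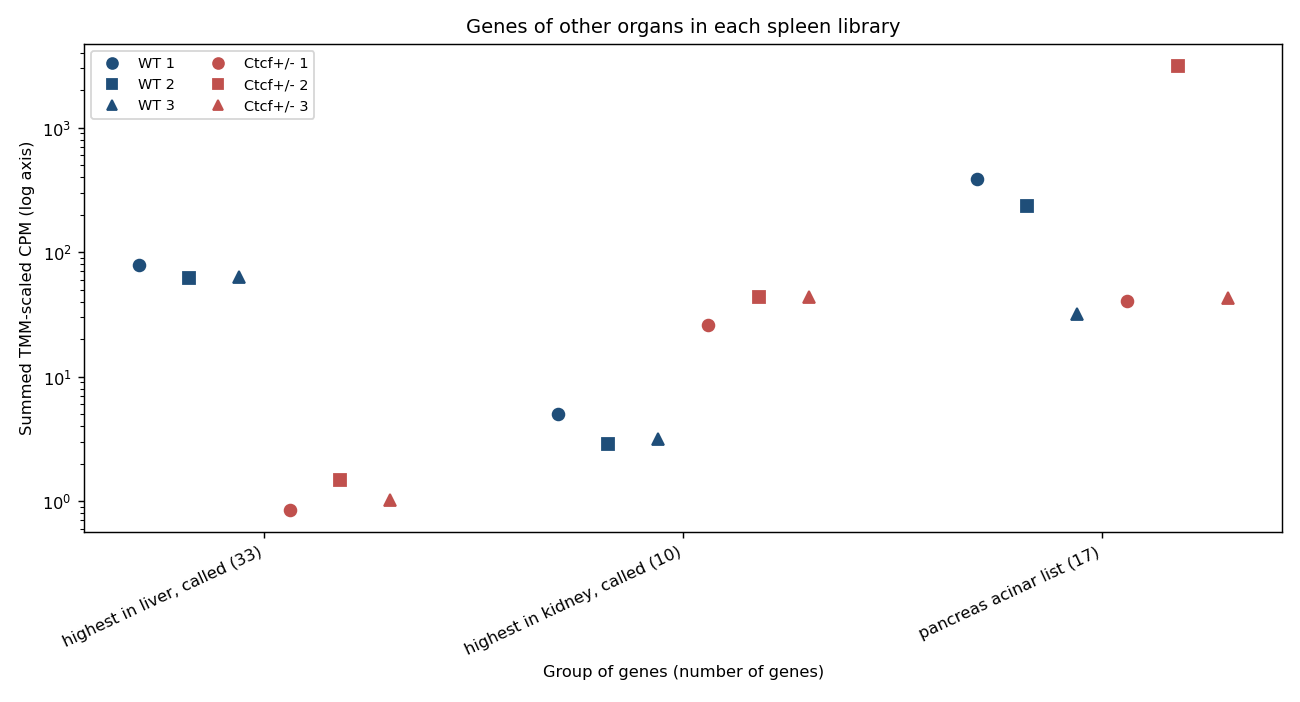
Each point is the summed TMM-scaled CPM (y axis, log scale) of a group of genes in 1 spleen library. The called liver transcripts are at 62.3 to 79.2 CPM in WT and 0.85 to 1.47 CPM in heterozygous libraries, the called kidney transcripts are higher in heterozygous libraries, and the pancreas genes peak at 3118 CPM in heterozygous replicate 2.

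Whether spleen differed from the other tissues was tested in 1 fit of all 30 libraries, as the effect in spleen minus the mean effect in brain, kidney, liver and muscle. Of 24262 genes 118 were called (0.486%), and of the 19615 not set aside 23 were (0.117%). For Ctcf no difference was detected: the spleen effect minus the mean of the others was -0.00165 (SE 0.16, adjusted p 1), beside a mean effect of -0.63 in the other tissues. Carmil2 differed by -4.16 (SE 0.27, adjusted p 9.49e-10), since its mean log2 fold change was 4.96 in the other tissues. Exd1 differed by 2.23 (SE 0.31, adjusted p 4.02e-04) and Zdhhc1 by 0.79 (SE 0.12, adjusted p 0.00162), both on the higher side in spleen. This fit shares 1 spread over tissues, while the spleen libraries spread more than the others.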

How the data were processed

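Raw fragment counts per gene were deposited by the authors in 1 table per tissue. Per the file headers they came from featureCounts 1.5.0-p3, run on exons in paired mode without strand on alignments from IRFinder, with Ensembl release 86 of GRCm38. The submitters' processing notes also name FastQC, STAR and DESeq2. Total counts of the spleen libraries were 77.9 M to 91.4 M, so 3 counts equal 0.0328 to 0.0385 CPM; this covers counting error only, as fragments carried no molecular identifiers. Libraries were assigned to groups by title. Symbols matched 48349 of 48709 gene identifiers. Replicates differed beyond sampling noise (chi-square per degree of freedom 178 to 640), and none was merged.

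Counts were analysed in R 4.3.3 with edgeR 4.0.16 (filterByExpr, TMM, quasi-likelihood F-test, Benjamini-Hochberg); alternatives used DESeq2 1.42.0, limma 3.58.1, other scalings and filters, a replicate block, all 30 libraries, and single libraries left out. The fits were tested on simulated data with the spread of each gene in these libraries. Genes were drawn independently, so the differences that many genes share between libraries were absent. The changed genes had a mean of at least 1 CPM. In the spleen comparison edgeR called 0% of 50 genes changed 1.5-fold, 8% of 50 changed 2-fold and 86% of 50 changed 4-fold. In such data changes of 2-fold or less thus mostly go uncalled, and the rates may differ in the real libraries. Among unchanged genes edgeR made 8 calls, limma-voom 10 and DESeq2 74. Principal components used a prior count of 2. Named genes are Ctcf, Carmil2, called genes (up to 6 of those set aside), the 10 with the smallest p in each direction with groups apart and a mean of at least 1 CPM, in each spleen list the 5 highest per exon length and 3 smallest p, in other lists the 3 smallest p, and the 15 with the largest spread at a mean of at least 10 CPM. The genes and lists were chosen with earlier results of these data known.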

Additional observations from a re-analysis of the deposited data

Results flagged for a closer look

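Genes are given here because the genotype effect in spleen differed from the mean effect in the other 4 tissues in the fit of all 30 libraries (edgeR quasi-likelihood test, adjusted p under 0.05); differences are log2. Of the 118 genes called in that fit only those named in the report are given. Among transcripts set aside as highest in liver, the differences were negative: Alb at -8.33, Rbp4 at -6.23, Ttr at -5.37 and Serpina1b at -5.03, with adjusted p of 1.57e-04 to 0.0106. When single libraries were left out, the adjusted p of Alb reached 0.0552 and that of Serpina1b 0.0627. Carmil2 differed by -4.16. Cfap74 differed by -1.94 (adjusted p 0.0475), a call lost with total counts (0.0987), with a replicate block (0.173) and in 4 of 6 fits without a single library (adjusted p up to 0.277 without WT replicate 2, and under the threshold only without WT replicate 1 or heterozygous replicate 3). Gpr27 differed by 2.67, Exd1 by 2.23, Ppic by 1.08 and Zdhhc1 by 0.79, all higher in spleen. The mean log2 fold change of the other tissues was 0.01 for Gpr27, 0.83 for Exd1, 0.04 for Ppic and 0.32 for Zdhhc1. Liver is itself among the other tissues, and the spread is shared over tissues.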

How the results depend on the processing

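The 45 calls and the 2 calls among genes not set aside became 192 and 40 with DESeq2, 97 and 4 with limma-voom, 132 and 17 with library quality weights, 74 and 4 with no filter beyond 1 count, and 250 and 82 in the fit of all 30 libraries. In edgeR they were 0 and 0 with at least 10 counts in every library, where the unadjusted p was under 0.05 in 430 and 341 genes, and they were 19 and 0 with the first principal component as a covariate. This covariate and the fit without WT replicate 1 and heterozygous replicate 2 (0 and 0 calls) were chosen after seeing the data. With the set-aside transcripts removed before the fit, 0 genes were called (382 at an unadjusted p under 0.05), and with a limit of 30 times 1 was. Leaving out single libraries gave 0 to 29 calls in all and 0 to 2 among genes not set aside. A filter of 10 counts in every library leaves out genes near 0 in a group, such as Mup20, Rbp4 and Kap. The cause of the shifts in calls was not tested.

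The log2 fold change of Ctcf passed the threshold in the fit of all 30 libraries (-0.63, adjusted p 0.0219; the range over alternatives was 0.0219 to 1), and that of Carmil2 with DESeq2 (0.798, adjusted p 0.0223; range 0.0223 to 1). The T cell median ran from 0.0605 to 0.306 when single libraries were left out. The neutrophil median ran from 0.601 to 1.97, was 1.83 with library quality weights, and was 2 without both libraries that stood apart. The spread ran from 0.282 to 0.369 and was 0.25 without those libraries. Calls against the other tissues ran from 68 to 164. Other scalings gave 45 to 60 calls, and a robust dispersion gave 40. Of 3843 values recomputed, 3548 were scored as the same, by a rule that differed with the kind of value. Ctcf, Carmil2 and genes named for a call or for the smallest p in each direction were scored by direction and side of the threshold. None of these reversed direction. Counts, list medians, the spread and other list genes were scored by how far they moved. A median or list gene could thus change sign and still score as the same.

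With the replicate number as a block, edgeR called 0 genes, and 0 among those not set aside, with 517 and 278 at an unadjusted p under 0.05. Deviations of same-numbered libraries from their genotype mean correlated at -0.544, -0.166 and 0.432. Only heterozygous replicate 3 correlated best with its own number. The highest correlation, 0.818, was between WT replicate 1 and heterozygous replicate 2, the libraries that stood apart. With such libraries in each genotype these values cannot show whether the numbers pair the libraries. Depth puts 3 counts at 0.0328 to 0.0385 CPM, which limits genes near 0.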
